A study of Mus musculus with 13 samples.

Results

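The genes described here are 41 genes of inflammatory signalling: 10 CC chemokines, 9 CXC or CX3C chemokines, 4 chemokine receptors, 10 cytokines or cytokine antagonists, 5 cytokine receptors and 3 genes of NF-kB feedback or its subunits. They were chosen by symbol from a table of 46958 genes, and all 41 symbols were found in it. Of these, 34 had enough counts to be tested, among 16738 genes tested in all. RNA was sequenced from glomeruli, the filtering tufts of the kidney, which were isolated on magnetic beads. The mice were 6 months old and of a background labelled mixed C57/BL6x129/SVxBALB/c. The submitters place this age at the onset of glomerular scarring. The libraries comprised 4 from mice labelled kFRA (LCDD), 4 from mice labelled DH-LMP2A and 5 from mice labelled WT. Every LCDD and DH-LMP2A library and WT replicates 1 and 2 pooled 3 mice each, while WT replicates 3, 4 and 5 came from 1 mouse each. The labels name no agent and no further allele, and they do not say which alleles LCDD mice share with DH-LMP2A mice. As background, LCDD stands for light chain deposition disease, in which an immunoglobulin light chain settles in basement membranes and the mesangium of the glomerulus. DH-LMP2A is known as a strain that carries the viral protein LMP2A in the immunoglobulin heavy-chain locus of its B lineage.

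Chemokines are small secreted proteins that draw leukocytes along a gradient, and each family is read by its own set of receptors. Many chemokine and cytokine genes are targets of the NF-kB transcription factors, which are held in the cytoplasm until a receptor such as that for TNF or IL-1 is engaged, and which induce their own inhibitors. In the glomerulus such genes can be expressed by mesangial, endothelial and epithelial cells as well as by resident leukocytes.

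Total counts per library ran from 16687509 to 30587890. Levels below are CPM, counts scaled to the library total and by TMM factors, and levels compared between genes are CPM per kilobase of summed exon length. A floor of 3 counts corresponded to 0.0971 to 0.185 CPM. Podocyte markers, which define the labelled tissue, summed to 6880 to 32368 CPM and all 7 were tested. Y-linked markers summed to 18.0 to 220 CPM in LCDD, 68.3 to 223 CPM in DH-LMP2A and 0 to 27.0 CPM in WT. WT replicates 1, 3, 4 and 5 held at most 0.0811 CPM, so their sex make-up differed from that of the other genotypes. WT replicate 2, at 27.0 CPM, lay within the LCDD range and below that of DH-LMP2A. The sample titles share a 6-digit code that ties 1 LCDD library to 1 DH-LMP2A library; its meaning is not stated. Tests used edgeR's quasi-likelihood fit over all 13 libraries, and a gene is called where the Benjamini-Hochberg adjusted p was under 0.05. These p-values measure the spread between the libraries, most of them pools. In whole glomeruli a lower share of a cell type and less RNA per cell cannot be told apart.

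The 41 genes spanned the whole range of expression. Averaged over the 13 libraries, Cxcl13 stood highest at 106 CPM per kilobase, above 97.8% of the genes tested. Nfkbia followed at 105, and then Tnfrsf1a at 64.6, Cx3cl1 at 41.4, Ackr3 at 36.5 and Il34 at 21.6. The mean of Cxcl13 was 296 CPM per kilobase in LCDD, against 22.3 in DH-LMP2A and 20.4 in WT. At the other end, Ccl7, Ccl8, Ccl12 and Ccl19 and the anti-inflammatory cytokine Il10 never passed 3 counts in any library. Il6, the cytokine that drives the acute-phase response, passed 3 counts in 3 of 13 libraries with a maximum of 5 counts. Cxcl14 did so in 6 of 13 with a maximum of 16 counts. These 7 genes were not tested, and a change in them was not detectable at this depth.

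**Figure D1:**
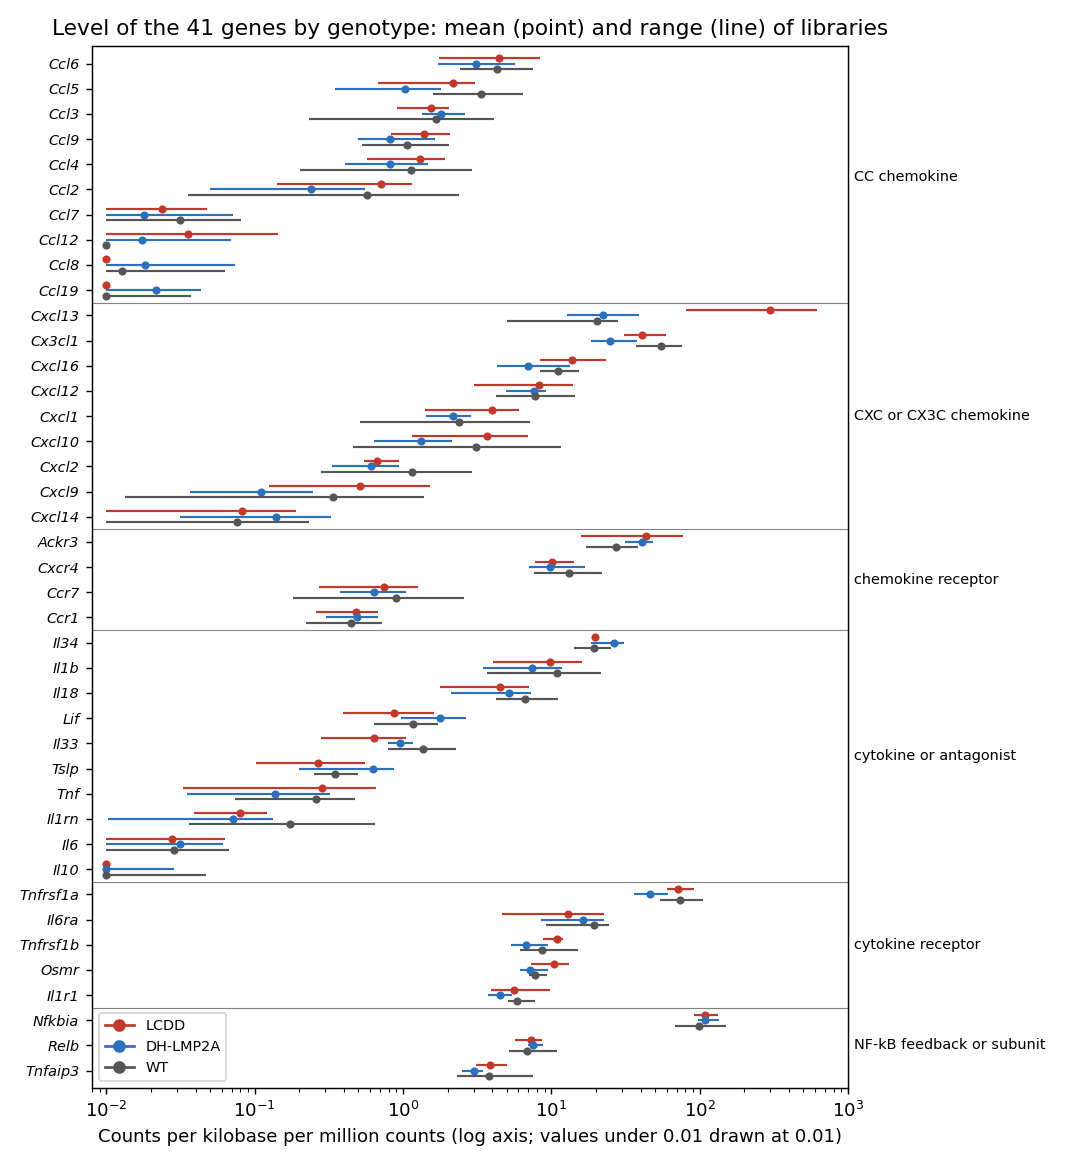
Level of each of the 41 genes on a log axis in CPM per kilobase, by role and genotype, with the mean of the libraries as a point and their range as a line (4 LCDD, 4 DH-LMP2A, 5 WT). Cxcl13 in LCDD, with a mean of 296, is the only gene whose LCDD line lies clear of both other genotypes, and the 7 genes not tested sit at the left.

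Cxcl13 was the member that set LCDD apart. It encodes a chemokine that draws B cells and follicular helper T cells through the receptor CXCR5. Its gene lies on chromosome 5 at 95956951 to 95961068 on the plus strand (GRCm38) in the annotation used for counting. The RefSeq start site used below follows base 95956938 and so lies slightly upstream of that. The bases before its start site are shown beside those of Cxcl10, an interferon-induced chemokine on the same chromosome. These windows were printed because both hold the letters of known response elements. The 250 bases before each start site are printed 5′ to 3′ on the gene's strand, from RefSeq on GRCm38.p6, with motif matches in capitals.
Cxcl13, chr5:95956689-95956938, plus strand: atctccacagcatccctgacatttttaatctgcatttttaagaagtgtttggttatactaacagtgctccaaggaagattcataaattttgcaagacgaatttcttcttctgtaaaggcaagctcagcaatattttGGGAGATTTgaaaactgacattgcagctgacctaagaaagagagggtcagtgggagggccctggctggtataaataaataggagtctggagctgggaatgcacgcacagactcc
Cxcl10, chr5:92348890-92349139, minus strand: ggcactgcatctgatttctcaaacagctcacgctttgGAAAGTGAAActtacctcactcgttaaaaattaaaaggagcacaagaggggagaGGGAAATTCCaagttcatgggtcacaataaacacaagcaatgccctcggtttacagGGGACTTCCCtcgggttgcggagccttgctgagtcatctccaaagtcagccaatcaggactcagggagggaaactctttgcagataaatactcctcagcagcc

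The motifs below were searched on both strands in windows that also held the 50 bases after the start site. The Cxcl13 window held GGGAGATTT, the letters of an element described for this gene as a site of the NF-kB pair p52 and RelB, 114 bases before the start site. That motif occurred in 104 of 32851 promoter windows (0.317%) and in no other window of the 31 members that the RefSeq table holds. It was searched because it was described for this gene, so finding it there was no test. Its letters are fixed, while the motifs that follow allow any base at some positions, so their shares cannot be compared with it. The Cxcl10 window held the general NF-kB motif GGGANNTNCC at 159 and at 103 bases before the start site, the second of them readable on both strands, and the interferon response motif GAAANNGAAA at 213 bases. GGGANNTNCC occurred in 4.01% of windows and in 6 members (Cxcl1, Cxcl2, Cxcl10, Il6, Nfkbia and Tnfaip3), and GAAANNGAAA in 3.44% and in 4 members (Ccl19, Cxcl10, Cxcl14 and Tnfrsf1b). The Cxcl9 window, searched in the same way and not printed, held none of these motifs. A match describes the letters and does not show binding.

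In LCDD replicates 1 to 4, Cxcl13 stood at 707, 328, 92.9 and 234 CPM, a mean of 341 ± 263 (SD, n = 4). In DH-LMP2A it stood at 45.1, 21.9, 14.6 and 20.9 CPM, a mean of 25.6 ± 13.4 (SD, n = 4). In WT it stood at 5.79, 24.6, 27.0, 32.4 and 27.7 CPM, a mean of 23.5 ± 10.3 (SD, n = 5). Every LCDD library lay above every library of the other genotypes, with LCDD replicate 1 the highest and LCDD replicate 3 the lowest of the LCDD libraries. WT replicate 1 lay far below the other WT libraries.

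Cxcl13 rose 13.3-fold in LCDD against DH-LMP2A (log2 fold change 3.73 ± 0.64 SE, edgeR adjusted p = 0.0108), the 23rd largest rise by fold among the 16738 genes tested. Against WT it rose 14.5-fold (3.86 ± 0.59 SE, edgeR adjusted p = 0.00515). DH-LMP2A and WT were not separated, at 0.13 ± 0.55 (SE) with an edgeR adjusted p of 0.949. Within the 4 title codes the ratio of LCDD to DH-LMP2A was 15.7, 15.0, 6.35 and 11.2, so each pair showed the rise and the third code the smallest. The first code held both the highest LCDD and the highest DH-LMP2A value, but the lowest WT value.

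The rise against DH-LMP2A lost its call when DH-LMP2A replicate 2 was left out (log2 fold change 3.67, edgeR adjusted p = 0.0535) or DH-LMP2A replicate 3 (3.54, edgeR adjusted p = 0.0504). The rise against WT lost its call with the Y-linked level as a covariate (3.54, edgeR adjusted p = 0.424) and without the 3 single-mouse libraries (4.47, edgeR adjusted p = 0.134), while the estimate stayed large in both. Among libraries with like Y-linked sums, LCDD replicates 2 and 4 (21.1 and 18.0 CPM) held 328 and 234 CPM of Cxcl13, and WT replicate 2 (27.0 CPM) held 24.6. WT replicate 2 was the only WT library with such a sum, so sex make-up and genotype cannot be told apart here. The part of sex make-up in the Cxcl13 values was not tested.

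**Figure D2:**
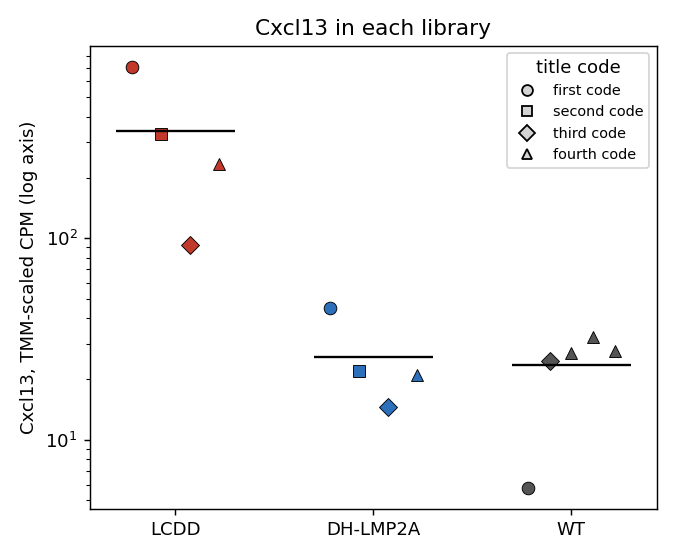
Cxcl13 in each library in TMM-scaled CPM on a log axis, by genotype, with symbols for the 4 title codes and bars for the genotype means. The 4 LCDD libraries lie between 92.9 and 707 CPM, above the DH-LMP2A maximum of 45.1 and the WT maximum of 32.4.

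The surroundings of Cxcl13 were measured with it. The summed level of mesangial markers was 3774 to 7108 CPM in LCDD and 2641 to 3479 in DH-LMP2A, which did not overlap. In WT it was 3083 to 3919 CPM, which overlapped LCDD. All 6 mesangial markers had higher estimates in LCDD than in DH-LMP2A and none was at 0 in any library. Only Serpine2, a secreted protease inhibitor, was called in edgeR (1.29 ± 0.30, edgeR adjusted p = 0.0446). At an unadjusted p under 0.05 in edgeR there were 5 of 6 (7.95% of all genes with LCDD higher). DESeq2 called 3 (4.9% of all genes), and edgeR with the title code as a block called 2 (6.1%). The groups did not overlap with LCDD higher for 2 of 6 (4.74%). Against WT, 5 had higher and 1 lower estimates, with 0 called in edgeR and 1 by DESeq2. Fibroblast markers, 4 of 6 tested, also had sums that did not overlap, at 148 to 225 CPM in LCDD and 113 to 143 in DH-LMP2A. Their sums in WT were 166 to 209 CPM. Of the fibroblast markers tested, 2 had higher and 2 lower estimates in LCDD than in DH-LMP2A. Among them 0 were called in edgeR and 2 by DESeq2 (4.9% of all genes). The parts of mesangial and fibroblast content in the Cxcl13 difference were not tested. B and plasma cell markers, 7 of 7 of them tested, summed to 6.89 to 9.86 CPM in LCDD, 5.60 to 13.1 in DH-LMP2A and 13.01 to 44.9 in WT, so LCDD overlapped DH-LMP2A and lay under every WT library. With the pan-leukocyte level as a covariate, the log2 fold change of Cxcl13 in LCDD against DH-LMP2A was 3.52 ± 0.72 (SE, edgeR adjusted p = 0.0416). The part of leukocyte content in the Cxcl13 values was not tested.

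The receptor of Cxcl13 and some of the genes known to lead to Cxcl13 in lymphoid tissue were read beside it. Cxcr5, its receptor, averaged 0.414 CPM in LCDD, 0.540 in DH-LMP2A and 0.612 in WT. Lymphotoxin beta, Ltb, which with Lta engages the receptor Ltbr, averaged 1.55, 1.94 and 1.81 CPM in the same order, and Lta was too low to be tested. Ltbr averaged 95.7, 79.0 and 92.3 CPM, again in that order. Of the downstream genes, the kinase Map3k14 averaged 13.9, 10.4 and 14.1 CPM, and the precursor of p52, Nfkb2, 54.7, 45.7 and 44.4 CPM. None of Cxcr5, Ltb, Ltbr, Map3k14 and Nfkb2 was called between any genotypes in edgeR. Relb, the partner of p52, ranged over 22.1 to 33.5 CPM in LCDD, 26.9 to 34.3 in DH-LMP2A and 20.1 to 42.6 in WT, and these ranges overlapped.

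Across the 34 tested members, 24 had a higher and 10 a lower estimate in LCDD than in DH-LMP2A, with a median log2 fold change of 0.35 against -0.01 over all genes tested. Only Cxcl13 was called, 1 of 34, where 2% of all genes tested were called in either direction. The groups did not overlap with LCDD higher for 1 member, Cxcl13, where 4.74% of all genes did so, and with LCDD lower for 0 members, where 2.89% did so. At an unadjusted p under 0.05 there were 6 members higher and 3 lower, where 7.95% and 5.16% of all genes were, and DESeq2 called 1 member (4.9% of all genes). With the title code as a block, edgeR called 3 members, Cxcl13 and Cxcl16 higher and Lif lower, where 6.1% of all genes tested were called. Pan-leukocyte markers moved with these estimates: 6 of 6 had higher estimates in LCDD than in DH-LMP2A and 0 were called, and their summed level was 49.7 to 121 CPM in LCDD, 39.0 to 71.2 in DH-LMP2A and 46.1 to 190 in WT. With that level as a covariate the members' median was -0.14, with 12 estimates higher and 22 lower.

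In LCDD against WT, 19 members had higher and 15 lower estimates, with a median log2 fold change of 0.03 (0.01 over all genes tested). Without the single-mouse WT libraries 4 were higher and 30 lower (median -0.52), and with the Y-linked level as a covariate 5 were higher and 29 lower (median -0.58). Cxcl13 was again the only member called, 1 of 34, against 1.84% of all genes tested, and DESeq2 called 1 member (4.4% of all genes). It was also the only one whose groups did not overlap with LCDD higher (2.97% of all genes), and 0 members lay wholly lower (1.63% of all genes). For DH-LMP2A against WT, 9 members were higher and 25 lower with a median of -0.38 (0.00 over all genes tested). edgeR called 0 of them, where 0.627% of all genes were called; 1 was higher and 3 lower at an unadjusted p under 0.05 (6.67% and 5.79% of all genes), and DESeq2 called 1, Cx3cl1 (2.82% of all genes). No member lay wholly higher in DH-LMP2A (2.64% of all genes) or wholly lower (2.33%). LCDD and DH-LMP2A share the WT libraries in these comparisons. Without WT replicate 2 the medians were 0.30 for LCDD and 0.01 for DH-LMP2A, so the lower median of DH-LMP2A rested on that library. Leukocyte markers moved with that median too: 6 of 6 pan-leukocyte markers had lower estimates in DH-LMP2A than in WT (median -1.03, 0 called in edgeR). With their level as a covariate the members' median for DH-LMP2A against WT was 0.25, with 23 estimates higher and 11 lower.

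**Figure D3:**
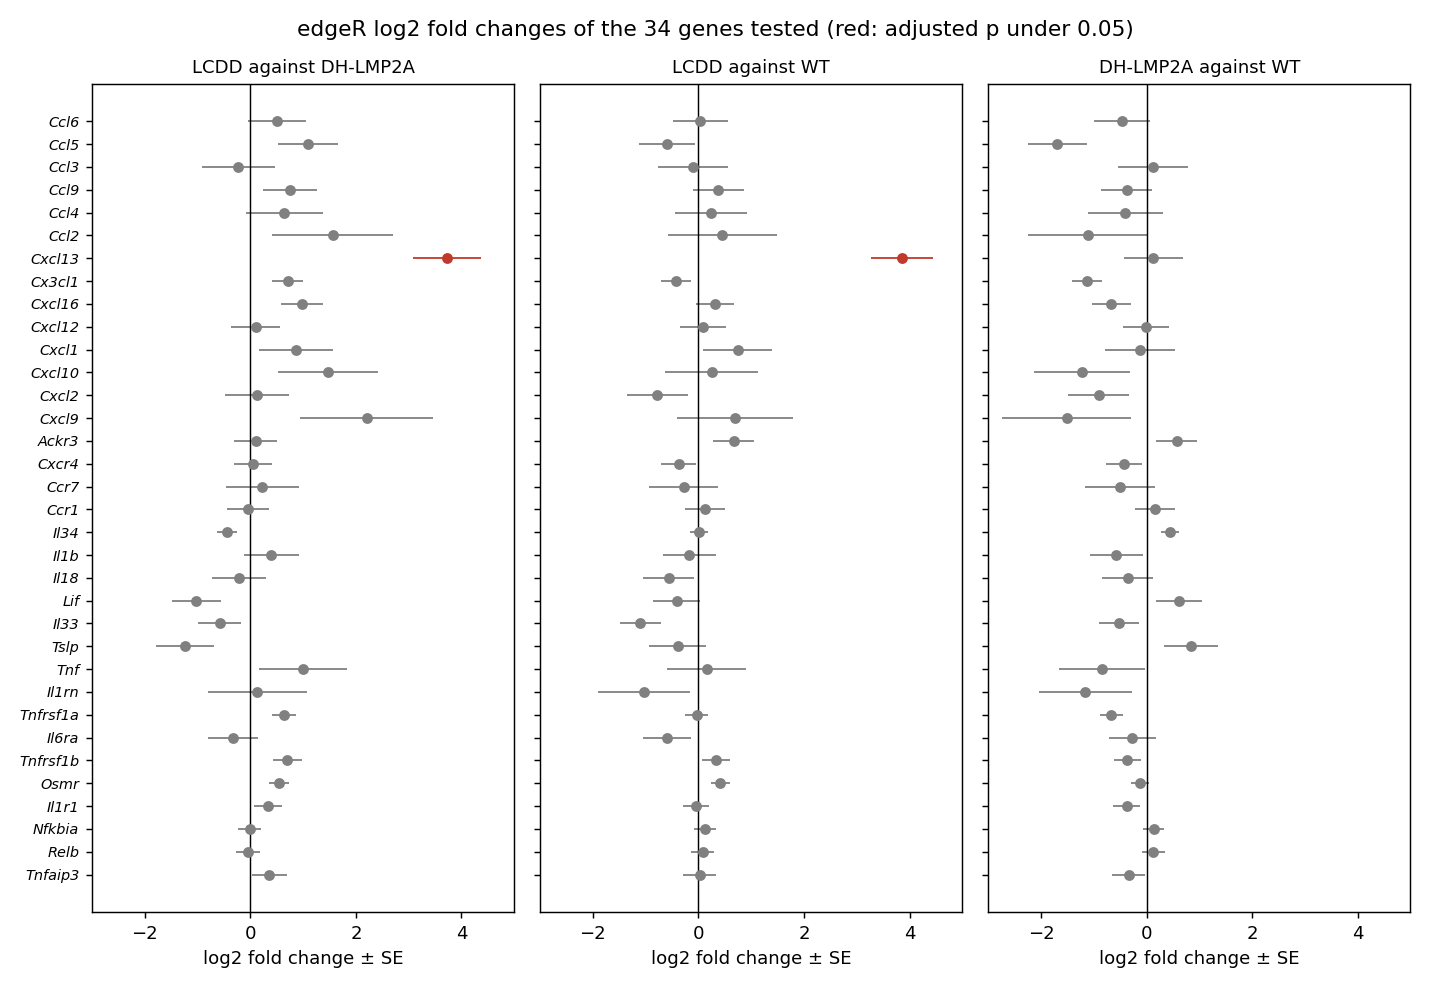
edgeR log2 fold changes with standard errors for the 34 tested genes, ordered by role, in the 3 comparisons, with an adjusted p under 0.05 in red. Cxcl13 is the only red point, at 3.73 against DH-LMP2A and 3.86 against WT, and no gene is red for DH-LMP2A against WT.

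The CC chemokines, which mostly draw monocytes and T cells, were scarce. The 6 of 10 that could be tested had a median log2 fold change of 0.70 in LCDD against DH-LMP2A, with 5 higher estimates, and 0 were called. Ccl6, a monocyte chemokine, was the most abundant per kilobase, at 7.92 ± 5.76 CPM in LCDD, 5.59 ± 3.19 in DH-LMP2A and 7.77 ± 3.94 in WT (SD). Ccl2, the main monocyte attractant, had a log2 fold change of 1.56 ± 1.15 (SE) against DH-LMP2A, on levels of 0.162 to 1.305 CPM in LCDD and 0.0571 to 0.627 in DH-LMP2A. That standard error was large beside the estimate, and the edgeR adjusted p was 0.637. Ccl5, a T cell and monocyte attractant, had the lowest estimate of DH-LMP2A against WT in this family, -1.69 ± 0.56 (SE), with an edgeR adjusted p of 0.227. Its ranges of 0.333 to 1.72 CPM in DH-LMP2A and 1.52 to 6.18 in WT overlapped.

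The 8 tested CXC and CX3C chemokines all had higher estimates in LCDD than in DH-LMP2A, with a median log2 fold change of 0.92, and 1 of 8 was called. After Cxcl13, the clearest was Cxcl16, a membrane-bound chemokine and scavenger receptor for oxidized lipoprotein that draws CXCR6-bearing T cells. It stood at 70.8, 41.1, 25.5 and 29.6 CPM in LCDD replicates 1 to 4, and at 40.6, 14.3, 16.7 and 13.1 CPM in DH-LMP2A. In WT it stood at 38.3, 46.2, 25.3, 27.9 and 30.5 CPM. LCDD overlapped DH-LMP2A only through DH-LMP2A replicate 1, and WT overlapped both. Against DH-LMP2A the log2 fold change was 0.98 ± 0.39 (SE) with an edgeR adjusted p of 0.285. Under each title code LCDD was higher, by ratios of 1.74, 2.88, 1.53 and 2.26, and with the code as a block Cxcl16 was called in edgeR (1.03 ± 0.25, adjusted p = 0.0397).

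Cx3cl1, or fractalkine, is a membrane-bound chemokine of endothelium and epithelium that holds CX3CR1-bearing monocytes. It stood at 135, 220, 114 and 136 CPM in LCDD and at 141, 89.5, 72.1 and 68.2 CPM in DH-LMP2A. WT libraries stood at 247, 282, 139, 138 and 212 CPM. The DH-LMP2A libraries other than replicate 1 lay below all other libraries, and replicate 1 lay just above the lowest WT values. The log2 fold change of DH-LMP2A against WT was -1.13 ± 0.29 (SE) with an edgeR adjusted p of 0.115, while DESeq2 gave an adjusted p of 0.0128. LCDD against DH-LMP2A was 0.71 ± 0.30 (SE) with an edgeR adjusted p of 0.320, and the same-code ratios were 0.960, 2.46, 1.58 and 1.99. Glomerular endothelial markers moved with it: 7 of 7 had lower estimates in DH-LMP2A than in WT and 0 were called in edgeR. At an unadjusted p under 0.05 in edgeR there were 4 of them (5.79% of all genes with DH-LMP2A lower). Their summed level was 4868 to 11441 CPM in LCDD, 3516 to 9275 in DH-LMP2A and 7016 to 11768 in WT. Their part in the Cx3cl1 values was not tested.

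Cxcl12, the CXCR4 ligand that retains progenitor cells and is made by podocytes, did not separate the genotypes, at 67.1 ± 42.3 CPM in LCDD, 62.4 ± 16.9 in DH-LMP2A and 63.2 ± 32.8 in WT (SD). The neutrophil chemokine Cxcl2 had means of 1.39 CPM in LCDD, 1.26 in DH-LMP2A and 2.39 in WT.

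Cxcl9, Cxcl10, Cxcl1 and Il1rn are set out by library because 1 WT library dominated them; they were chosen after their values were seen. Cxcl10, which with Cxcl9 draws CXCR3-bearing T cells, stood at 15.6, 6.74, 2.59 and 8.01 CPM in LCDD and at 3.97, 1.44, 1.66 and 4.79 CPM in DH-LMP2A. In WT it stood at 4.72, 26.3, 1.04, 1.66 and 1.34 CPM. WT replicate 2 thus exceeded every LCDD library, and the other WT libraries lay in or below the DH-LMP2A range. Cxcl9 stood at 4.57, 0.790, 0.377 and 0.473 CPM in LCDD, 0.748, 0.111, 0.285 and 0.179 in DH-LMP2A, and 0.485, 4.20, 0.0801, 0.268 and 0.0406 in WT. LCDD replicate 1 and WT replicate 2 were the only libraries above 1 CPM. Cxcl1, a neutrophil chemokine, reached 13.5 CPM in WT replicate 2 and 11.4 in LCDD replicate 1, with the other WT libraries at 0.961 to 3.95. Il1rn, the IL-1 receptor antagonist, reached 3.58 CPM in WT replicate 2 and at most 0.741 CPM in any other library.

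Against DH-LMP2A the log2 fold changes in LCDD were 1.47 ± 0.95 for Cxcl10, 2.20 ± 1.26 for Cxcl9 and 0.87 ± 0.70 for Cxcl1 (SE), with edgeR adjusted p of 0.575, 0.505 and 0.673. WT replicate 2 was the highest of all 13 libraries for 19 of the 34 members, while it was so for 15.7% of all genes tested. The interferon-stimulated genes moved with these chemokines: their summed level was 2815 CPM in WT replicate 2 and 682 to 810 CPM in the other WT libraries. In LCDD it was 824 to 1741 CPM and in DH-LMP2A 548 to 840. Pan-leukocyte markers were also highest in WT replicate 2, at 190 CPM. The part of leukocyte content in that library's values was not tested.

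**Figure D4:**
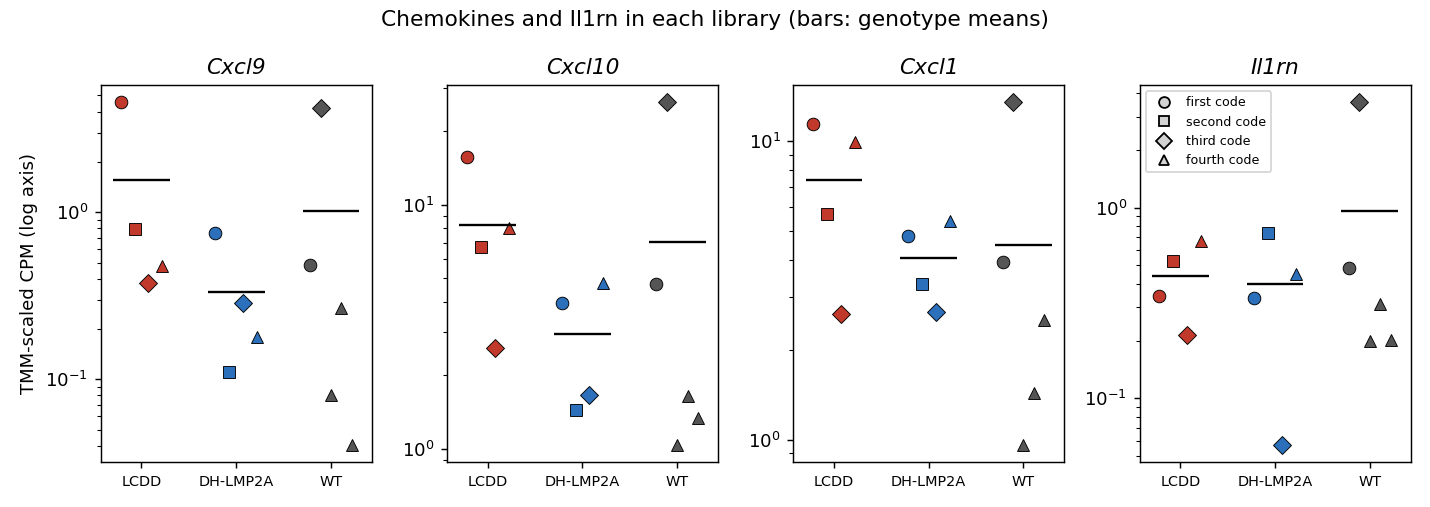
Cxcl9, Cxcl10, Cxcl1 and Il1rn in each library in TMM-scaled CPM on log axes, by genotype, with symbols for the title codes and bars for the genotype means. WT replicate 2, the WT diamond, stands at 4.20, 26.3, 13.5 and 3.58 CPM, above every other WT library.

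Of the 4 chemokine receptors, 0 were called in any comparison with edgeR, and their median log2 fold change in LCDD against DH-LMP2A was 0.08. Ackr3, the atypical receptor that clears Cxcl12, was the most abundant. It stood at 52.8, 95.8, 178 and 257 CPM in LCDD, 117, 105, 161 and 162 in DH-LMP2A, and 57.7, 66.5, 126, 129 and 79.0 in WT. In all 3 genotypes the libraries of the fourth code lay above that of the first, and the LCDD range covered that of both others. Its log2 fold change was 0.67 ± 0.39 (SE) for LCDD against WT with an edgeR adjusted p of 0.575, and 0.10 ± 0.41 against DH-LMP2A with an edgeR adjusted p of 0.947. Cxcr4, the signalling receptor for Cxcl12, averaged 18.4 CPM in LCDD, 17.7 in DH-LMP2A and 23.8 in WT. The leukocyte receptors Ccr1 and Ccr7 averaged 1.26 to 1.39 and 1.26 to 1.77 CPM across genotypes.

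Of the 8 tested cytokines and antagonists, 5 had lower estimates in LCDD than in DH-LMP2A, with a median log2 fold change of -0.32 and 0 called. Lif, a cytokine of the IL-6 family, stood at 1.73, 1.92, 7.06 and 4.54 CPM in LCDD and at 4.23, 6.56, 8.56 and 11.5 CPM in DH-LMP2A. In WT it stood at 2.78, 7.54, 4.84, 6.18 and 3.97 CPM. LCDD replicates 1 and 2 lay below every other library, while replicates 3 and 4 lay within the DH-LMP2A range. Its log2 fold change against DH-LMP2A was -1.02 ± 0.47 (SE) with an edgeR adjusted p of 0.367. Under each title code LCDD was lower, at ratios of 0.408, 0.293, 0.824 and 0.393, and with the code as a block Lif was called lower in edgeR (-1.18 ± 0.25, adjusted p = 0.0270). Podocyte markers moved with it: 7 of 7 had lower estimates in LCDD than in DH-LMP2A (median -0.42). Of these, 0 were called in edgeR and 2 with the block, which called 6.1% of all genes. They summed to 6880, 12587, 29677 and 24674 CPM in LCDD replicates 1 to 4, lowest where Lif was lowest, and to 15337 to 30274 CPM in DH-LMP2A. Their part in the Lif values was not tested.

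Il33, an alarmin released from damaged cells, stood at 2.42, 3.01, 0.808 and 1.10 CPM in LCDD, 3.37, 2.63, 2.28 and 2.73 in DH-LMP2A, and 6.54, 2.29, 3.60, 3.80 and 3.49 in WT. LCDD replicates 3 and 4 were the lowest of all, and WT replicate 2 was the only WT library inside the range of the LCDD and DH-LMP2A libraries. The log2 fold change of LCDD against WT was -1.10 ± 0.39 (SE) with an edgeR adjusted p of 0.222. It was -0.24 with the Y-linked level as a covariate (edgeR adjusted p = 0.923), and -1.48 with the proximal tubule level as one (edgeR adjusted p = 0.0431), where Il33 was called. When WT replicate 2 was left out, Il33 was the only member wholly lower than WT in LCDD (3.37% of all genes) and in DH-LMP2A (5.16%).

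Il34, a ligand of the macrophage receptor CSF1R made by kidney epithelium, was the most abundant cytokine. It stood at 37.5, 37.3, 40.0 and 38.3 CPM in LCDD, 36.0, 52.05, 59.0 and 60.2 in DH-LMP2A, and 27.7, 49.8, 39.5, 41.9 and 31.4 in WT. The LCDD libraries were nearly equal, and 3 of the 4 DH-LMP2A libraries lay above all others. Its log2 fold change was -0.44 ± 0.19 (SE) for LCDD against DH-LMP2A with an edgeR adjusted p of 0.330, and 0.45 ± 0.18 for DH-LMP2A against WT with an edgeR adjusted p of 0.324. Proximal tubule markers, 8 of 8 tested, summed to 299 to 1112 CPM in LCDD, 342 to 2245 in DH-LMP2A and 89.7 to 2096 in WT. With their level as a covariate Il34 was called in edgeR in both comparisons, at -0.51 (adjusted p = 0.0412) and 0.75 (adjusted p = 0.0189).

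The cytokines classically made by macrophages varied within each genotype. Il1b averaged 18.6 ± 9.47 CPM in LCDD, 14.0 ± 6.49 in DH-LMP2A and 21.0 ± 13.5 in WT (SD), and Tnf averaged 0.464, 0.225 and 0.427 CPM. Il18, an IL-1 family cytokine activated by inflammasomes, averaged 3.21, 3.71 and 4.75 CPM. Tslp, an epithelial cytokine, averaged 0.301 CPM in LCDD against 0.714 in DH-LMP2A, with a log2 fold change of -1.23 ± 0.55 (SE) and an edgeR adjusted p of 0.360. Macrophage markers, of which 10 of 11 could be tested, had overlapping sums of 926 to 1223 CPM in LCDD, 802 to 1181 in DH-LMP2A and 850 to 1274 in WT. Gene by gene, 9 of the 10 had higher estimates in LCDD than in DH-LMP2A (median log2 fold change 0.79), with 0 called in edgeR. At an unadjusted p under 0.05 in edgeR there was 1 (7.95% of all genes with LCDD higher), and DESeq2 called 1 (4.9% of all genes). All 10 had lower estimates in DH-LMP2A than in WT (median -1.05), with 0 called in edgeR or DESeq2. At an unadjusted p under 0.05 in edgeR there were 5 (5.79% of all genes with DH-LMP2A lower). Their part in the chemokine and cytokine values was not tested.

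Of the 5 cytokine receptors, 4 had higher estimates in LCDD than in DH-LMP2A with a median log2 fold change of 0.54, and 0 were called. Tnfrsf1a, the widely expressed TNF receptor that signals to NF-kB, stood at 189, 239, 155 and 162 CPM in LCDD and at 158, 114, 113 and 93.3 CPM in DH-LMP2A. In WT it stood at 199, 273, 141, 141 and 198 CPM. DH-LMP2A replicates 2 to 4 lay below every other library, and only replicate 1 reached into the LCDD range. LCDD against DH-LMP2A had a log2 fold change of 0.64 ± 0.23 (SE) with an edgeR adjusted p of 0.215, and that of DH-LMP2A against WT was -0.67 ± 0.22 with an edgeR adjusted p of 0.226. LCDD and WT differed by -0.03 ± 0.22. Glomerular endothelial markers moved with Tnfrsf1a as with Cx3cl1: 7 of 7 had higher estimates in LCDD than in DH-LMP2A. In DH-LMP2A against WT, 7 of 7 had lower estimates, and 0 were called in edgeR in either comparison. At an unadjusted p under 0.05 in edgeR there were 0 with LCDD higher (7.95% of all genes) and 4 with DH-LMP2A lower (5.79%). They summed to 9275, 5997, 4347 and 3516 CPM in DH-LMP2A replicates 1 to 4. Their part in the Tnfrsf1a values was not tested.

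Tnfrsf1b, the inducible TNF receptor, ranged over 33.6 to 46.0 CPM in LCDD, 20.3 to 36.2 in DH-LMP2A and 23.6 to 58.1 in WT. Its log2 fold change against DH-LMP2A was 0.70 ± 0.27 (SE) with an edgeR adjusted p of 0.275. When WT replicate 2 was left out, every LCDD library also lay above every WT library for Tnfrsf1b, as it did for Cxcl13, among 5.87% of all genes. Osmr, the oncostatin M receptor, had a log2 fold change of 0.54 ± 0.19 (SE) against DH-LMP2A and 0.42 ± 0.18 against WT, with edgeR adjusted p of 0.201 and 0.357. Il6ra, the IL-6 receptor, averaged 112 CPM in LCDD, 140 in DH-LMP2A and 169 in WT, and Il1r1, the signalling receptor of IL-1, averaged 35.9, 28.5 and 37.0 CPM in the same order of genotypes.

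**Figure D5:**
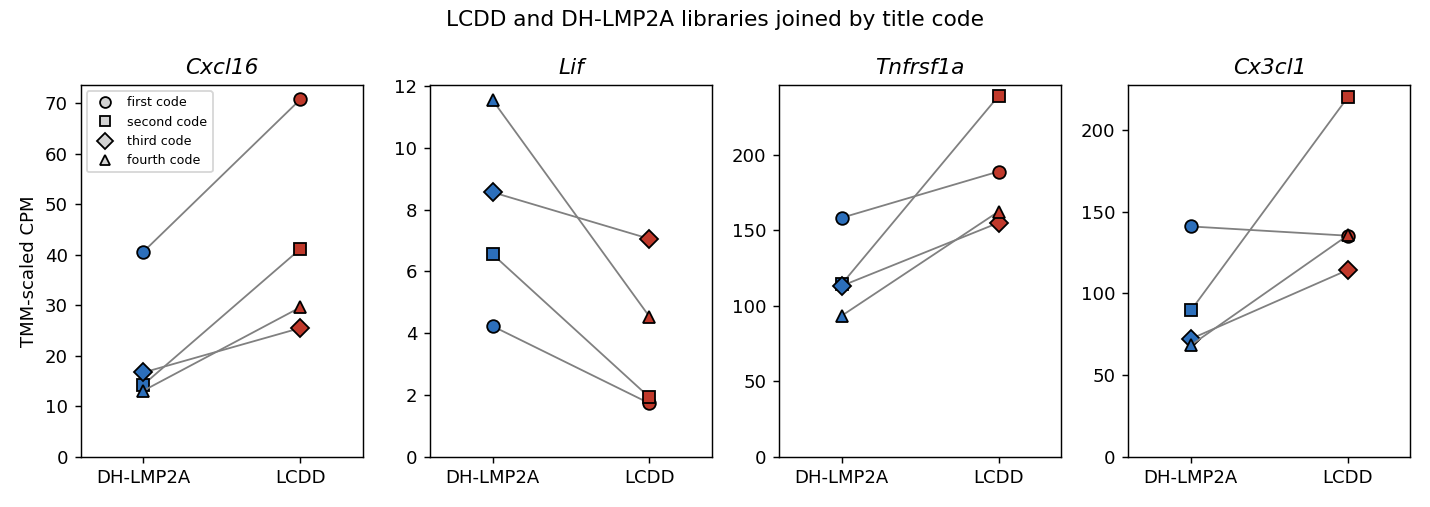
Cxcl16, Lif, Tnfrsf1a and Cx3cl1 in TMM-scaled CPM, with the DH-LMP2A and the LCDD library of each title code joined by a line. Cxcl16 and Tnfrsf1a are higher and Lif lower in LCDD under all 4 codes, while Cx3cl1 is higher under 3 and nearly level under the first, at a ratio of 0.960.

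No gene of NF-kB feedback was called between genotypes in edgeR. Nfkbia, which encodes the inhibitor that returns NF-kB to the cytoplasm and is itself an NF-kB target, stood at 209, 165, 166 and 143 CPM in LCDD and at 212, 156, 167 and 152 CPM in DH-LMP2A. In WT it stood at 153, 236, 128, 160 and 107 CPM. The first code was highest in both LCDD and DH-LMP2A and the pairs ran almost in parallel. Their log2 fold change was -0.01 ± 0.21 (SE) with an edgeR adjusted p of 0.990. Tnfaip3, the ubiquitin-editing brake on TNF signalling, averaged 27.9 ± 6.06 CPM in LCDD, 21.7 ± 3.67 in DH-LMP2A and 27.5 ± 15.8 in WT (SD), and reached 54.4 CPM in WT replicate 2. Relb averaged 28.3, 29.2 and 26.7 CPM.

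The wider pathway was read from 6 further lists, none of which held a gene called by edgeR in LCDD against DH-LMP2A; DESeq2 called 1 gene each in the NF-kB signalling chain, the other NF-kB targets and the interferon-stimulated genes. Of the other chemokines and receptors, 13 of 36 could be tested, with a median log2 fold change of 0.12. Of the other cytokines and receptors, 52 of 66 could be tested (median 0.28), and of the NF-kB signalling chain 46 of 47 (median 0.10). Other NF-kB target genes had a median of 0.33 over 17 of 22, and IL-6 family signalling -0.07 over 10 of 10. The 24 interferon-stimulated genes all had higher estimates, with a median of 0.93; 9 had an unadjusted p under 0.05 (7.95% of all genes tested did so with LCDD higher), and for 11 of 24 the groups did not overlap (4.74% of all genes). With the title code as a block edgeR called 9 of the 162 tested genes of these lists, or 5.56%, where it called 6.1% of all genes. They were Ccr2, Ccrl2, Il2rg, Ifngr2, Birc3, Sele, Plau and Ifi44 higher and Tnfrsf21 lower. Among them, Birc3, an inhibitor of apoptosis induced by NF-kB, had ranges of 79.4 to 95.8 CPM in LCDD, 68.0 to 75.4 in DH-LMP2A and 63.0 to 82.1 in WT.

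In the comparisons with WT edgeR called 1 of the 162 tested genes of these lists, Ifngr1, the ligand-binding chain of the interferon gamma receptor. Of all genes tested, edgeR called 1.84% for LCDD and 0.627% for DH-LMP2A. DESeq2 called 3 genes of these lists for LCDD (4.4% of all genes) and 8 for DH-LMP2A (2.82%). Ifngr1 fell in both: it averaged 121 ± 22.9 CPM in LCDD, 99.0 ± 18.9 in DH-LMP2A and 226 ± 54.4 in WT (SD). Its log2 fold change was -0.90 ± 0.20 (SE) for LCDD with an edgeR adjusted p of 0.0397, and -1.19 ± 0.20 for DH-LMP2A with an edgeR adjusted p of 0.0222. LCDD overlapped WT, at 99.8 to 153 CPM against 144 to 282, and DH-LMP2A at 78.8 to 124 CPM did not. The sex make-up differed between WT and both other genotypes, and its part in these values was not tested.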

How the data were processed

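The file as deposited by the authors gives raw counts of reads for each gene in 13 libraries of stranded poly(A) RNA from purified glomeruli. Per the submitters' processing notes the tools were STAR 2.4.0a, featureCounts of Subread 1.5.0-p3 and DESeq2, with builds mm10 and GRCm38. The strand setting, the handling of multi-mapping reads and the annotation release are not given in the sources used here. The authors' exon length per gene in that table was used for levels per kilobase.

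Replicates were numbered in order of deposition within each genotype. Genes were tested in R 4.3.3 with edgeR 4.0.16: filterByExpr with a minimum count of 10 kept 16738 genes, counts were scaled by TMM, and all 13 libraries entered 1 quasi-likelihood fit by genotype, with Benjamini-Hochberg adjustment over the genes tested. Log2 CPM used a prior count of 2, and 3 counts were the floor. Counts carry no molecular identifiers, so the floor covers counting error only. The fit was tested on simulated data. Alternatives were DESeq2 1.42.0, RLE size factors, no filter, a fit of the genotypes compared, a title-code block, covariates for Y-linked, proximal tubule and pan-leukocyte markers, and leaving out libraries.

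Deviations of same-code LCDD and DH-LMP2A libraries from their genotype means correlated at 0.15 to 0.59 over genes in 4 of 4 pairs, so the code was taken to pair those genotypes. Libraries of unlike codes were not correlated as a reference. The block fit also held the WT libraries under their codes.

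Members called in edgeR with or without the block, and the 6 highest per kilobase, were given in every library. The members and lists were chosen with earlier results of these data known. Promoter windows came from RefSeq (GRCm38.p6), which held 31 of the 41 members.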

Additional observations from a re-analysis of the deposited data

Results flagged for a closer look

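Cxcl13 in WT replicate 1 stood apart from the other WT libraries, at 2.55 on the log2 CPM scale (5.79 CPM), while the other 4 lay between 4.63 and 5.02. The gap to the nearest of them was 0.841 of the range of the WT libraries. The check was run on 27 groups of libraries (9 members in 3 genotypes), of which 1 stood out, where chance gives about 1 in 20, or 1.35 of 27. Without WT replicate 1 the log2 fold change of LCDD against WT was 3.61 ± 0.54 (SE) with an edgeR adjusted p of 0.00580, so the rise of Cxcl13 in LCDD did not rest on that library.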

How the results depend on the processing

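The call of Cxcl13 against DH-LMP2A was kept under 17 of 19 alternatives and against WT under 18 of 20, with log2 fold changes of 3.08 to 4.15 and 3.22 to 4.47; the exceptions are given above. The number of members called depended more on the setting. For LCDD against DH-LMP2A, where 1 was called, it was 3 with the replicate block and 3 with the proximal tubule covariate, 7 with the block and without WT replicate 2 (chosen after seeing the data), and 0 to 2 when 1 library was left out. For LCDD against WT, also with 1 called, it was 2 with the block (Cxcl13 and Il33), 2 with the tubule covariate, 0 with the Y-linked covariate, 0 without the single-mouse libraries and 4 with the block and without WT replicate 2 (again added afterwards). For DH-LMP2A against WT, with 0 called, it was 1 with DESeq2, 2 with the block (Cx3cl1 and Tnfrsf1a), 3 with the tubule covariate and 0 to 1 when 1 library was left out. For DH-LMP2A against WT the block also called 3 of 7 glomerular endothelial markers lower, where it called 265 of 16738 genes lower. The block pairs WT with the other genotypes only in number. Same-code correlations ran from -0.16 to 0.40 for LCDD with WT and from -0.16 to 0.57 for DH-LMP2A with WT.

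The near-zero difference of Cxcl13 between DH-LMP2A and WT changed sign to -0.10 with the block and to -0.23 with the Y-linked covariate, and ran from -0.29 to 0.32 when 1 library was left out. With the Y-linked covariate, DH-LMP2A against WT also changed sign for Il33 (0.50) and Lif (-0.19). Over all alternatives 20 of the 34 members changed sign at least once for LCDD against DH-LMP2A, 25 for LCDD against WT and 24 for DH-LMP2A against WT. The causes were not tested.

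Counts over all genes tested moved too: 334, 308 and 105 genes were called in the 3 comparisons in the order above, while DESeq2 called 820, 737 and 472, the block 1021, 536 and 562, the tubule covariate 950, 274 and 579, the Y-linked covariate 366, 23 and 36, and the pan-leukocyte covariate 174, 519 and 141. Without the single-mouse libraries they were 223, 54 and 69, and with only the genotypes compared 213, 185 and 77. RLE scaling moved the median log2 fold change of all genes by -0.02, -0.02 and -0.01 and changed the sign of 0, 1 and 0 members. Depth limits the 7 untested members and those near the floor, such as Ccl2, Cxcl9, Tnf and Tslp.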

Other observations

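Other leukocyte markers gave further values beside the chemokines. T and NK cell markers, 10 of 10 tested, had 9 higher estimates in LCDD than in DH-LMP2A with a median log2 fold change of 0.73. In edgeR 0 of them were called and 2 had an unadjusted p under 0.05, where 7.95% of all genes did so with LCDD higher. Dendritic cell markers, 4 of 5 tested, had 4 higher estimates with a median of 1.18. In edgeR 0 of them were called and 2 had an unadjusted p under 0.05 (again beside 7.95% of all genes). Neutrophil markers summed to 4.80 to 14.4 CPM in LCDD, 8.51 to 19.2 in DH-LMP2A and 7.20 to 51.7 in WT.

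Position among the libraries was shared by some members. In both LCDD and DH-LMP2A the library of the first title code was the highest of its genotype for 10 of the 34 tested members: Ccl3, Ccl4, Ccl6, Cxcl9, Cxcl13, Cxcl16, Tnf, Il1r1, Tnfrsf1b and Nfkbia. This held for 17% of all genes tested. It was the lowest of both for 5 members, Cxcl12, Il18, Tslp, Lif and Il6ra, and for 16.9% of all genes tested. WT replicate 2 was the highest of the WT libraries for 25 of the 34 members, and for 33.4% of all genes tested.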
